A study of Homo sapiens with 27 samples.

Results

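The genes described are those on the distal part of the long arm of chromosome 17. They are the protein-coding genes that start at 55 Mb or later on chromosome 17 (GENCODE v44 annotation, hg38) and had a mean CPM (counts scaled to a common library total) of at least 1 over all libraries. Of 60619 genes in the count table, 335 were protein-coding genes of this region, 78 of them lay below the minimum, and FASN, BIRC5 and SOCS3 were left out, which leaves 254 genes. The set was proposed because its genes stood higher in SUM44 LTED-B than in SUM44F, so all values of that comparison are given below as a description, without a test. At the threshold on position, HLF (chr17:55264960-55325187, mean 34.4 CPM) was the first gene inside and STXBP4 (chr17:54968727-55173632, mean 15.5 CPM) the last outside. At the threshold on level, RBFOX3 was the lowest inside with 1.06 CPM, and RAB37 the highest outside with 0.864 CPM.

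MM134 and SUM44 are cell lines of estrogen receptor (ER)-positive invasive lobular breast carcinoma, and RNA-seq was done on 3 libraries of each of 9 groups. MM134 parental, SUM44PE and SUM44F cells were the estrogen-dependent lines, hormone-deprived for 3 days in medium with 10% charcoal-stripped serum. SUM44F cells are SUM44PE cells that had been grown for some months in serum-containing medium and are the parental cells of the SUM44 LTED variants. Long-term estrogen-deprived (LTED) cells had been cultured for several months without estrogen to model resistance to aromatase inhibitors. Each variant was derived independently: MM134 gave LTED-A, B, D and E, and SUM44 gave LTED-A and LTED-B. The libraries of a group are wells of a single culture, so the tests speak for the spread between wells, not between derivations.

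The distal long arm of chromosome 17 is gene-dense and belongs to the regions most often gained in breast cancer. It carries regulators of splicing, growth-signalling kinases, mitochondrial carriers and genes of mitosis side by side. When a chromosome segment is gained or lost, transcripts along it tend to shift together by modest amounts, while transcripts under strong individual control can move against the segment. DNA copy number was not analysed here, and whether it differed between these cultures was not tested.

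Total counts per library were between 28583554 and 134882175, with a median of 44018412. In SUM44 LTED-A, replicates 2 and 3 differed less than sampling noise allows and were counted as 1 sample, so that variant has n = 2 and there are 26 samples in all. All 7 luminal markers (ESR1, GATA3, FOXA1, KRT8, KRT18, KRT19 and EPCAM) were above 1 CPM in every group, and CDH1, whose protein lobular cells lack, was at 8.35 to 24.6 CPM. SUM44F replicate 1 stood apart: its 6 fibroblast markers summed to 361.0 CPM against 9.47 and 8.39 CPM in replicates 2 and 3 (COL3A1 134.5 against 0.703 and 0.467 CPM). Some results against SUM44F are therefore also given without this library, and those given only with it may change without it. The 6 immune cell markers summed to 24.1 to 24.7 CPM in MM134 LTED-A and to at most 9.56 CPM in every other group. In MM134 LTED-A this sum was made up almost wholly of CD68 (14.4 CPM) and LYZ (9.74 CPM). PTPRC, CD3E, CD14 and CD79A were each at most at 0.152 CPM there, and at most at 0.177 CPM in MM134 parental cells. The part of these markers in any result of MM134 LTED-A was not tested. In bulk samples like these, fewer cells of a type and less RNA per cell cannot be told apart.

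The 254 genes together were at a lower level in SUM44PE, SUM44F and SUM44 LTED-A than in the other groups. SUM44 LTED-B lay within the range of the MM134 libraries in normalized CPM, though not as a percent of counts. Their normalized CPM (CPM scaled by TMM, the trimmed mean of M-values) summed to 11613, 11607 and 10328 in the SUM44F libraries and to 16965, 17383 and 17262 in those of SUM44 LTED-B. SUM44 LTED-A was at 11459 and 11988, inside or just above the range of SUM44F, and SUM44PE was lower at 10033 ± 252 (SD, n = 3). In MM134 the sum was 16492 ± 82.1 in parental cells, 18860 ± 402 in LTED-A, 17617 ± 326 in LTED-B, 17716 ± 110 in LTED-D and 17475 ± 191 in LTED-E (SD, n = 3 each). Each MM134 LTED library lay above each parental library on this scale. As a percent of all counts, with no TMM scaling, the order changed: the set took 1.80% in MM134 parental cells, 1.83% in LTED-A, 1.70% in LTED-B and in LTED-D, and 1.74% in LTED-E. On that scale SUM44F took 1.21%, SUM44PE 1.02%, SUM44 LTED-A 1.14% and SUM44 LTED-B 1.63%, so the position of SUM44 LTED-B above the other SUM44 groups was found on both scales, whereas the order within MM134 and of SUM44 LTED-A against SUM44F was not. As a percent of counts each SUM44 LTED-B library lay below each MM134 library.

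**Figure D1:**
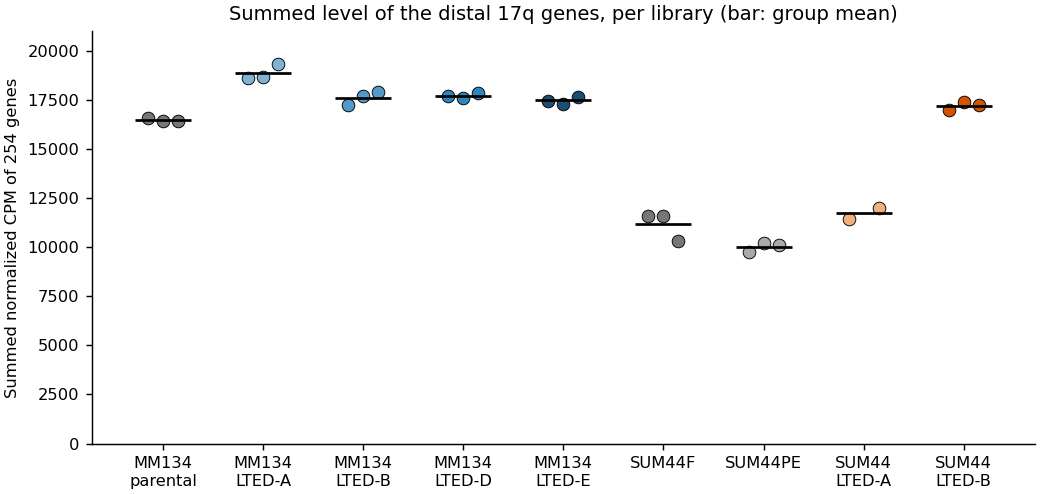
Summed level of the 254 distal 17q genes in each library, in normalized CPM, by group; points are libraries and bars are means. The SUM44 LTED-B libraries lie between 16965 and 17383, near those of MM134 and above the 8 other SUM44 samples.

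In SUM44 LTED-B the median gene of the set stood 0.57 above SUM44F on the log2 scale, a fold of 1.48, with quartiles of 0.22 and 0.83. Of the 254 genes, 207 had a value above 0, 122 were more than 1.5-fold above SUM44F and 18 more than 1.5-fold below. Over all genes tested, 14.8% were above and 25.2% below by the same fold. Nothing is read from these counts, since the comparison chose the set. The other genes of chromosome 17 at the same minimum of level had a median of 0.10 and those of the other chromosomes one of 0.11. Per library, the median of the set against the SUM44F mean was 0.53 to 0.59 in LTED-B, and the SUM44F libraries themselves were at -0.12 to 0.06. Without SUM44F replicate 1 the median was 0.59, with 127 genes above and 14 below by 1.5-fold. Without SUM44F replicate 3 the median was 0.50.

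The values of the same comparison are given along the arm as a description only, since they chose the set. In windows of 5 Mb the median log2 difference of LTED-B from SUM44F was -0.10 from 45 to 50 Mb (57 genes) and 0.64 from 50 to 55 Mb (29 genes), so the window just before the start of the set was as high as those inside it. The highest median before 50 Mb was 0.28, from 0 to 5 Mb (76 genes). Within the set it was 0.51 from 55 Mb (39 genes), 0.33 from 60 Mb (35 genes), 0.45 from 65 Mb (23 genes), 0.57 from 70 Mb (16 genes), 0.61 from 75 Mb (77 genes) and 0.72 from 80 Mb to the end (64 genes). The same windows of SUM44 LTED-A were at -0.03, -0.20, 0.04, 0.11, -0.04 and 0.15. The median was also similar over genes of different level, with 0.44 in the lowest tertile of mean CPM, 0.56 in the middle and 0.64 in the highest. The long non-coding RNAs of the region, which the rule did not use, had a median of -0.11 (128 tested) in LTED-B, against -0.36 for the 6111 elsewhere. They share the region and the libraries with the choice of the set, so this too is a description.

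**Figure D2:**
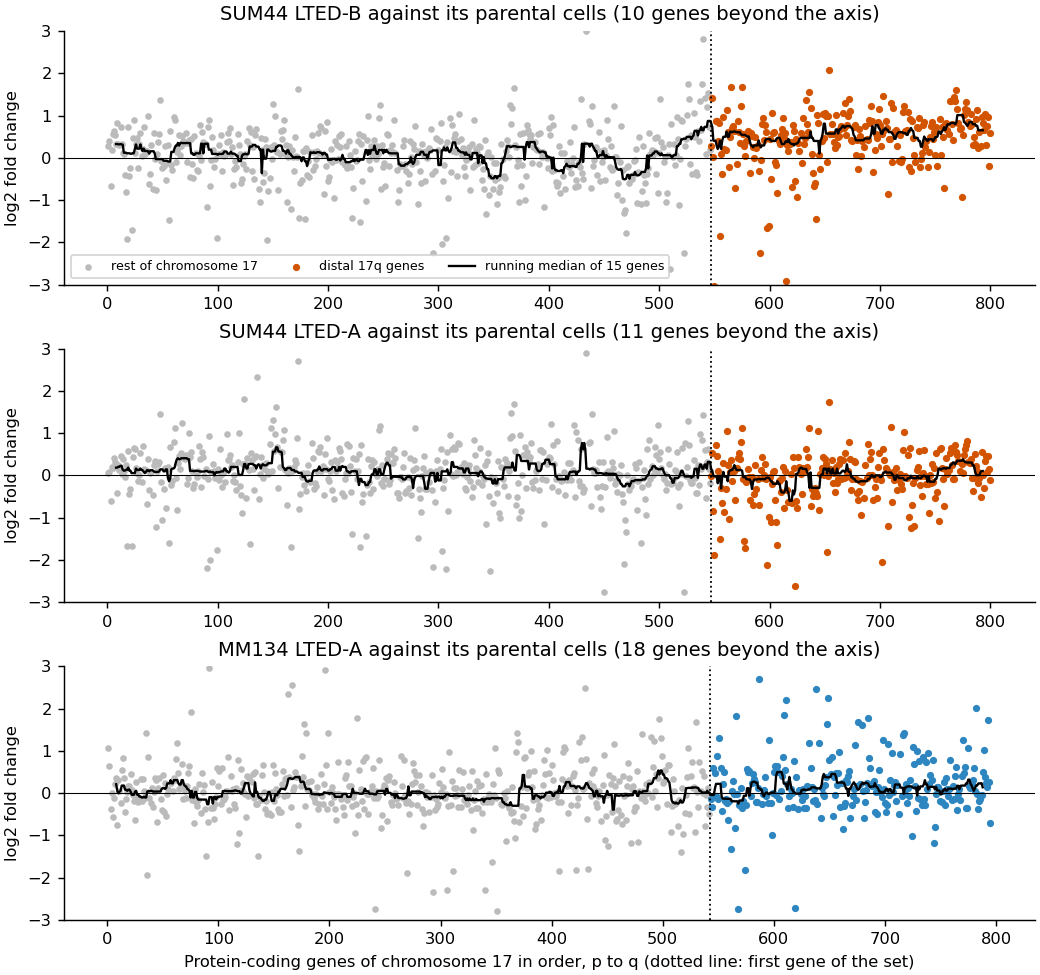
Log2 fold change of protein-coding genes along chromosome 17 in gene order for SUM44 LTED-B, SUM44 LTED-A and MM134 LTED-A against their parental cells; points are genes, the distal 17q genes are coloured and the line is a running median. In SUM44 LTED-B the running median stands above 0 along the distal genes, whose median is 0.57, and in SUM44 LTED-A it moves around 0.

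Among chromosomes, with the set counted as a unit of its own, distal 17q had the highest median log2 difference of 24 units in SUM44 LTED-B, ahead of chromosome 19 at 0.26. It was the highest but 1 in MM134 LTED-A (0.11) and LTED-B (0.08), and lower in the order in LTED-D (0.08) and LTED-E (0.06). In SUM44 LTED-A, with a median of 0.00, it was in place 18, and in SUM44PE against SUM44F, with -0.18, it was the lowest of the 24. In SUM44PE the windows of 5 Mb from 25 to 55 Mb, outside the set, had medians of -0.24 to -0.12. The lower level there was thus not particular to the set. These medians are descriptions, and the comparisons within a cell line share their control libraries.

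The largest differences of SUM44 LTED-B from SUM44F belonged to genes with unlike roles. NHERF1 (chr17:74748628-74769353), a scaffold protein below the cell membrane whose gene responds to estrogen, was at 59.2, 59.2 and 46.1 CPM in the SUM44F libraries and 212, 233 and 253 CPM in those of LTED-B, 2.09 higher on the log2 scale. PRR11 (chr17:59155732-59206709), a proline-rich protein of the cell cycle, was at 19.9, 20.1 and 20.1 CPM and 66.1, 63.5 and 63.9 CPM, which is 1.69 higher. ALYREF (chr17:81887835-81891586), an adaptor for export of mRNA from the nucleus, was at 49.8, 50.8 and 44.3 CPM and 139.6, 148 and 152 CPM, or 1.60 higher. In none of these genes did the libraries of the groups overlap. P4HB (chr17:81843159-81860856), the protein disulfide isomerase of the endoplasmic reticulum, was at 305, 290.2 and 251 CPM in SUM44F and 729, 791 and 791 CPM in LTED-B, 1.45 higher, while SUM44 LTED-A was at 258 and 269.6 CPM. KPNA2 (chr17:68035636-68047364), an importin that carries proteins into the nucleus, was at 117, 114 and 107 CPM and 298, 293 and 278 CPM, 1.36 higher, with 164 and 182 CPM in LTED-A. P4HB thus stood apart in LTED-B alone among the SUM44 groups, whereas KPNA2 in LTED-A was between SUM44F and LTED-B. Also among the highest 10 were SLC16A6 (1.57), a monocarboxylate transporter, RNF157 (1.47), a ubiquitin ligase, MMD (1.41), and MRPL12 (1.36), a mitochondrial ribosomal protein.

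SRSF1 (chr17:58000919-58007346), a splicing factor of the SR family, was at 238, 240.0 and 239 CPM in SUM44F, 255 and 311 CPM in SUM44 LTED-A and 369.7, 364 and 369 CPM in LTED-B, 0.62 higher in LTED-B than in SUM44F. That placed it near the middle of the set. In MM134 it was at 359.6 ± 9.13 CPM in parental cells and at 306 ± 2.28, 296 ± 7.78, 331 ± 6.59 and 377 ± 9.94 CPM in LTED-A, B, D and E (SD, n = 3 each). The level in SUM44 LTED-B was thus within the spread of the MM134 groups, and no LTED variant that was tested passed for SRSF1. SRSF2, another SR protein, was 0.66 higher in LTED-B, and ACTG1 (chr17:81509413-81523847), cytoplasmic gamma-actin, was 0.93 higher, at 820.1, 768 and 648 CPM in SUM44F and 1356, 1442 and 1463 CPM in LTED-B.

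Some genes of the set stood far below SUM44F in the same variant. UNC13D (chr17:75827225-75844785), a priming factor for the release of secretory granules, was at 31.7, 32.5 and 28.2 CPM in SUM44F and 1.32, 1.09 and 1.31 CPM in LTED-B, -4.63 on the log2 scale. PECAM1 (chr17:64319415-64413776), an adhesion molecule best known from endothelial and blood cells, was at 27.3, 26.8 and 21.7 CPM and 3.34, 2.79 and 3.91 CPM, or -2.90. SUM44F replicate 1, with its fibroblast markers, was the highest of the 3 for PECAM1 and not for UNC13D. SCPEP1 (-1.85), a serine carboxypeptidase, TANC2 (-1.62), a scaffold protein of synapses, and TSPAN10 (-0.71), a tetraspanin, completed the lowest 5 among genes with at least 5 CPM in SUM44F or LTED-B.

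**Figure D3:**
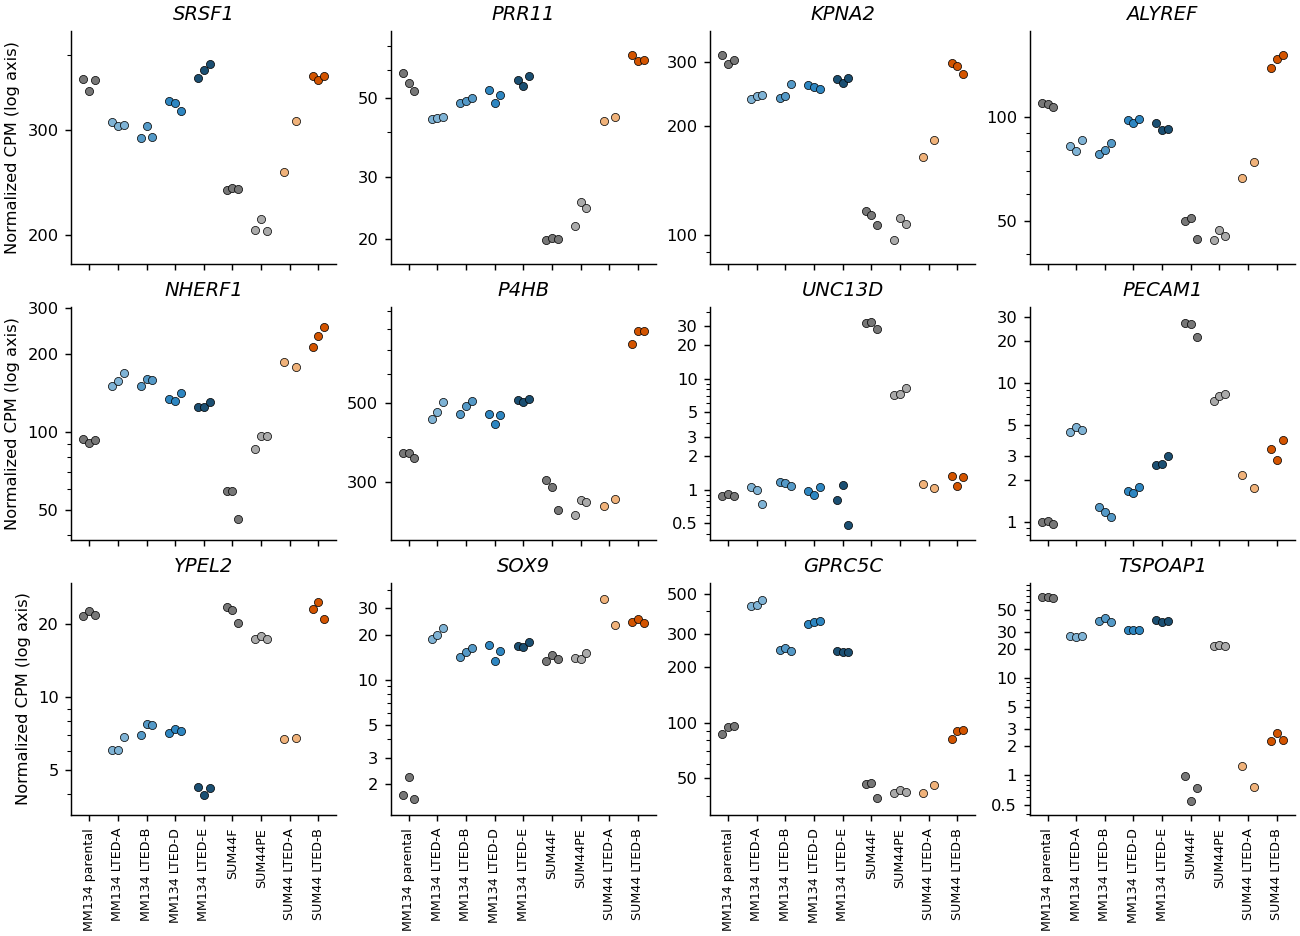
Normalized CPM (log axis) of 12 named distal 17q genes in every library of the 9 groups. NHERF1 and PRR11 are higher in both SUM44 LTED variants than in SUM44F, P4HB in LTED-B alone, and UNC13D and PECAM1 are high in SUM44F and low in both variants.

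Neighbours that start back to back give a view of the arm at the scale of single promoters. There were 13 such pairs in the set (25 genes, starts at most 1000 bases apart). PRR11 and SKA2, a component of the spindle and kinetochore complex, start 472 bases apart and both moved in SUM44 LTED-A: 1.13 and 0.80 on the log2 scale, against 1.69 and 1.22 in LTED-B. TK1, thymidine kinase of nucleotide salvage, and AFMID, kynurenine formamidase, start 125 bases apart, and in LTED-A TK1 was at 1.03 and AFMID at -0.01, against 1.24 and 0.64 in LTED-B. The stretches free of annotated exons within 250 bases before the starts of PRR11 and TK1 (RefSeq, hg38) are shown because TK1 passed the test in LTED-A without its partner, whereas PRR11 and SKA2 both passed. Capitals mark the letters CCAAT on either strand (ATTGG on the other), the box bound by the factor NF-Y in many promoters of cell cycle genes.

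PRR11, chr17:59155496-59155731, plus strand: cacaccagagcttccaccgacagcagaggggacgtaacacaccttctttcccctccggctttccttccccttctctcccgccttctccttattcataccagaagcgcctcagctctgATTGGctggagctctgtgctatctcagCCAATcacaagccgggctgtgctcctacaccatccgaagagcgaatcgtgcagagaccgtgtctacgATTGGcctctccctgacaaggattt
TK1, chr17:78187234-78187357, minus strand: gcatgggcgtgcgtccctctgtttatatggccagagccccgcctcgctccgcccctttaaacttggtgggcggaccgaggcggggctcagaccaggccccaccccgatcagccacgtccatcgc

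The PRR11 stretch of 236 bases holds 3 such matches and the TK1 stretch of 124 bases none. The rest of the 250 bases before each start is not shown and not counted here, so the stretches are not compared. Of 35116 RefSeq promoters of the annotation, searched over 250 bases before the start, 32.0% hold at least 1 match. A match is a description of the letters only. A comparison of the set with this share is void because only 189 of its 254 genes were matched to a promoter.

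SUM44 LTED-A, derived from the same SUM44F cells, did not show the shift of the arm as a whole. The comparison shares the SUM44F libraries with the one that chose the set. By edgeR's quasi-likelihood test (more than 1.5-fold, Benjamini-Hochberg adjusted p under 0.001), 17 of the 254 genes rose and 27 fell, or 6.69% and 10.6%, against 6.39% and 7.28% of all genes tested and 11.3% and 10.9% of the genes of other chromosomes at the same minimum of level. The count of rising genes rested on single libraries: it was 10 without SUM44F replicate 2, 9 without SUM44 LTED-A replicates 2 and 3, and 11, 10 and 11 without SUM44 LTED-B replicate 1, 2 or 3. The count of falling genes was 17 without SUM44 LTED-A replicate 1. Against SUM44PE, the earlier form of the line, 47 genes rose and 18 fell (7.05% and 7.27% of all genes), with a median of 0.17, so the balance of rising and falling genes turned with the choice of parental cells.

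NHERF1, ST6GALNAC2 and SLC16A6 had the largest rises in SUM44 LTED-A among genes at 5 CPM or more. NHERF1 was at 185 and 178 CPM, above each SUM44F library, and rose by 1.73 (SE 0.12, adjusted p = 1.27e-06) on the log2 scale. ST6GALNAC2, a sialyltransferase of O-glycans, was at 51.0, 49.3 and 45.5 CPM in SUM44F and 106 and 109.7 CPM in LTED-A and rose by 1.15 (SE 0.071, adjusted p = 7.02e-07). SLC16A6 was at 9.28, 8.74 and 10.2 CPM and 19.0 and 22.4 CPM and rose by 1.14 (SE 0.10, adjusted p = 1.02e-05). The samples of SUM44F and LTED-A did not overlap in any of the 3. PRR11 rose by 1.13 (SE 0.065, adjusted p = 4.21e-07) with 43.2 and 44.2 CPM in LTED-A, and TK1 by 1.03 (SE 0.094, adjusted p = 1.22e-05) with 49.9 and 53.6 CPM against 27.5, 26.4 and 22.4 CPM in SUM44F. SKA2 was at 50.5 and 68.9 CPM in LTED-A against 34.8, 34.3 and 33.8 CPM and rose by 0.80 (SE 0.11, adjusted p = 0.000186), and KPNA2 rose by 0.63 (SE 0.082, adjusted p = 0.000163). The calls of SKA2 and KPNA2 were both lost without SUM44F replicate 2 (0.82 and 0.65) and without LTED-A replicates 2 and 3 (0.56 and 0.55), and that of SKA2 also without SUM44F replicate 3 (0.82). Against SUM44PE, NHERF1 rose by 1.00, PRR11 by 0.91, KPNA2 by 0.76 and SLC16A6 by 1.58 (adjusted p = 1.03e-05, 5.13e-07, 9.58e-06 and 6.98e-08, edgeR), whereas TK1, at 0.41, did not pass (adjusted p = 0.00242).

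The largest falls in SUM44 LTED-A were larger than the largest rise. UNC13D was at 1.14 and 1.03 CPM and fell by 4.84 on the log2 scale (SE 0.14, adjusted p = 4.18e-09), and PECAM1 was at 2.17 and 1.77 CPM and fell by 3.70 on the log2 scale (SE 0.19, adjusted p = 1.75e-07). Both were already lower in SUM44PE than in SUM44F, and against SUM44PE they were at -2.77 and -1.99 (adjusted p = 4.17e-09 and 8.18e-07, edgeR). YPEL2, a yippee-family protein, was at 23.7, 22.9 and 20.2 CPM in SUM44F and 6.77 and 6.82 CPM in LTED-A, where it fell by 1.71 on the log2 scale (SE 0.11, adjusted p = 8.91e-07), but at 23.2, 24.7 and 21.2 CPM in LTED-B. AXIN2, a feedback inhibitor of Wnt signalling, was at 5.18, 3.87 and 3.00 CPM in SUM44F, 0.716 and 0.605 CPM in LTED-A and 2.74, 2.82 and 2.73 CPM in LTED-B, and fell by 2.61 on the log2 scale (SE 0.25, adjusted p = 1.61e-05) in LTED-A. YPEL2 and AXIN2 in LTED-A were thus below every SUM44F library, and the LTED-B libraries overlapped with SUM44F or lay just outside its range: those of YPEL2 overlapped, and those of AXIN2 were just under it. MGAT5B, a glycosyltransferase of the N-glycan pathway, was at 1.43, 1.35 and 1.47 CPM and 0.0741 and 0.123 CPM and fell by 3.70 on the log2 scale (SE 0.26, adjusted p = 1.91e-06).

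The level of the set was lower in SUM44PE than in SUM44F. The median log2 difference was -0.18, beside -0.12 for the rest of chromosome 17 and -0.02 for other chromosomes at the same minimum of level. By the test 4 genes rose and 8 fell, against 2.85% and 2.72% of all genes. The gene with the largest rise was TSPOAP1, a protein that binds the mitochondrial TSPO, with 21.2, 21.9 and 21.2 CPM in SUM44PE and 0.976, 0.547 and 0.746 CPM in SUM44F and a difference of 4.82 (SE 0.20, adjusted p = 5.47e-09). It was also low in both LTED variants, at 1.24 and 0.762 CPM in LTED-A and 2.26, 2.74 and 2.30 CPM in LTED-B, so SUM44PE stood alone among the SUM44 groups. The other genes that rose were ABCA5, a lysosomal lipid transporter (0.87 on the log2 scale, adjusted p = 0.000202), NHERF1 (0.76 on the log2 scale, adjusted p = 0.000121) and TK1 (0.64 on the log2 scale, adjusted p = 8.43e-05). The call of ABCA5 was lost without SUM44F replicate 2 (0.78) or SUM44PE replicate 1 or 3 (0.82 and 0.88), and that of NHERF1 without SUM44PE replicate 2 or 3 (0.73 each). Without SUM44PE replicate 3, 2 genes rose. UNC13D was at 7.07, 7.34 and 8.21 CPM in SUM44PE and fell by 2.04 on the log2 scale (SE 0.10, adjusted p = 2.24e-08), PECAM1 was at 7.40, 8.08 and 8.36 CPM and fell by 1.68 on the log2 scale (SE 0.13, adjusted p = 1.3e-06), and HLF, a PAR bZIP transcription factor, was at 14.7, 14.7 and 15.6 CPM against 31.9, 31.9 and 31.7 CPM in SUM44F and fell by 1.09 on the log2 scale (SE 0.080, adjusted p = 7.41e-07). In each of these the SUM44PE libraries lay below every SUM44F library.

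In the 4 MM134 variants more genes of the set rose than fell. The median log2 fold change against MM134 parental cells was 0.11 in LTED-A, 0.08 in LTED-B, 0.08 in LTED-D and 0.06 in LTED-E, over the 253 genes that passed the filter on low counts (SECTM1 did not). In LTED-A 54 genes rose and 17 fell, against 10.5% and 9.82% of all genes. In LTED-B 36 rose and 15 fell, against 8.11% and 7.75%, and in LTED-D 40 rose and 15 fell, against 9.63% and 7.95%. In LTED-E 47 rose and 23 fell, against 8.71% and 10.3%. As shares of the set, the rising genes were 21.3%, 14.2%, 15.8% and 18.6% in LTED-A, B, D and E, where genes of the other chromosomes at the same minimum of level had 14.8%, 11.1%, 14.5% and 12.6%. All 4 comparisons share the MM134 parental libraries, so they are given side by side and not as 4 observations.

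SOX9 (chr17:72121020-72126416), a transcription factor of progenitor cells, was at 1.69, 2.21 and 1.59 CPM in the MM134 parental libraries and at 20.2 ± 1.78 CPM in LTED-A, 15.3 ± 1.08 CPM in LTED-B, 15.3 ± 1.93 CPM in LTED-D and 17.02 ± 0.687 CPM in LTED-E (SD, n = 3 each). Its log2 fold changes were 3.44 (adjusted p = 1.06e-14), 3.05 (adjusted p = 1.65e-13), 3.06 (adjusted p = 1.64e-13) and 3.22 (adjusted p = 4.26e-14). PRKCA, protein kinase C alpha, was at 2.34, 2.37 and 2.49 CPM in parental cells, and rose by 3.34 (SE 0.076, adjusted p = 3.59e-17) in LTED-A to 24.4, 24.5 and 24.3 CPM and by 3.30 (SE 0.077, adjusted p = 5.29e-17) in LTED-E to 23.5 ± 1.18 CPM (SD, n = 3). In LTED-B and LTED-D it was lower, at 5.43 ± 0.491 and 7.79 ± 0.651 CPM. No variant library of SOX9 or PRKCA overlapped with the parental ones.

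ABCA5 and TTYH2 varied more between the variants. ABCA5 rose by 2.45 (adjusted p = 5.23e-13) in LTED-A, 4.11 (adjusted p = 1.79e-16) in LTED-B, 3.16 (adjusted p = 1.48e-14) in LTED-D and 1.84 (adjusted p = 1.1e-10) in LTED-E, from 0.857, 0.755 and 0.907 CPM in parental cells to at most 14.8, 13.6 and 14.8 CPM in LTED-B. TTYH2, of the tweety family of membrane proteins, stood at 1.23, 1.21 and 0.907 CPM in the parental libraries and at 11.4, 10.4 and 11.4 CPM in LTED-D, where it rose by 3.31 (SE 0.12, adjusted p = 6.18e-14). Some genes had their highest level in a single variant. NACA2, an intronless relative of NACA whose reads may be shared with that gene, was at 0.486, 0.647 and 0.259 CPM in parental cells and 6.82, 6.92 and 6.43 CPM in LTED-A (3.81 on the log2 scale, adjusted p = 5.72e-10). ACE, angiotensin-converting enzyme, was at 0.915, 0.701 and 0.809 CPM in parental cells and 6.74, 6.62 and 7.54 CPM in LTED-D (3.12 on the log2 scale, adjusted p = 1.04e-12). In LTED-E, ACE was at 2.30, 1.95 and 2.04 CPM, also above the parental libraries. FOXJ1, a regulator of motile cilia, was at 0.486, 0.378 and 0.518 CPM in parental cells and 5.46, 5.31 and 5.69 CPM in LTED-E (3.59 on the log2 scale, adjusted p = 1.77e-09). Each was below every library of its variant in the parental cells. ANKFN1 was at 0.143, 0.0539 and 0.0324 CPM in the parental libraries, near the limit of detection, and at 5.08, 5.31 and 5.87 CPM in LTED-A.

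The genes that fell in MM134 LTED cells included several that fell in all 4 variants. MGAT5B was at 7.37, 8.90 and 6.80 CPM in parental cells and at 0.279 ± 0.00118, 0.380 ± 0.0735 and 0.519 ± 0.125 CPM in LTED-A, B and D (SD, n = 3 each) and 0.815, 1.40 and 1.09 CPM in LTED-E, with log2 fold changes of -4.78 (adjusted p = 1.6e-13), -4.32 (adjusted p = 1.52e-12), -3.89 (adjusted p = 4.79e-12) and -2.78 (adjusted p = 5.76e-11). AXIN2 was at 31.0, 30.1 and 30.8 CPM in parental cells and at most at 11.4, 11.6 and 11.4 CPM in LTED-D, with -2.71, -1.94, -1.41 and -2.86 on the log2 scale in LTED-A, B, D and E (adjusted p at most 9.93e-12). YPEL2, at 21.8, 22.8 and 21.9 CPM in parental cells, had -1.82, -1.56, -1.60 and -2.41 (adjusted p at most 1.36e-13). Every variant library of these 3 genes lay below every parental one. PPM1E, a protein phosphatase, fell to 0.892, 0.668 and 0.892 CPM in LTED-A from 6.34, 5.37 and 4.95 CPM (-2.75 on the log2 scale, adjusted p = 2.44e-12) and was at 5.43, 5.21 and 5.89 CPM in LTED-E (-0.00 on the log2 scale, adjusted p = 0.989).

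**Figure D4:**
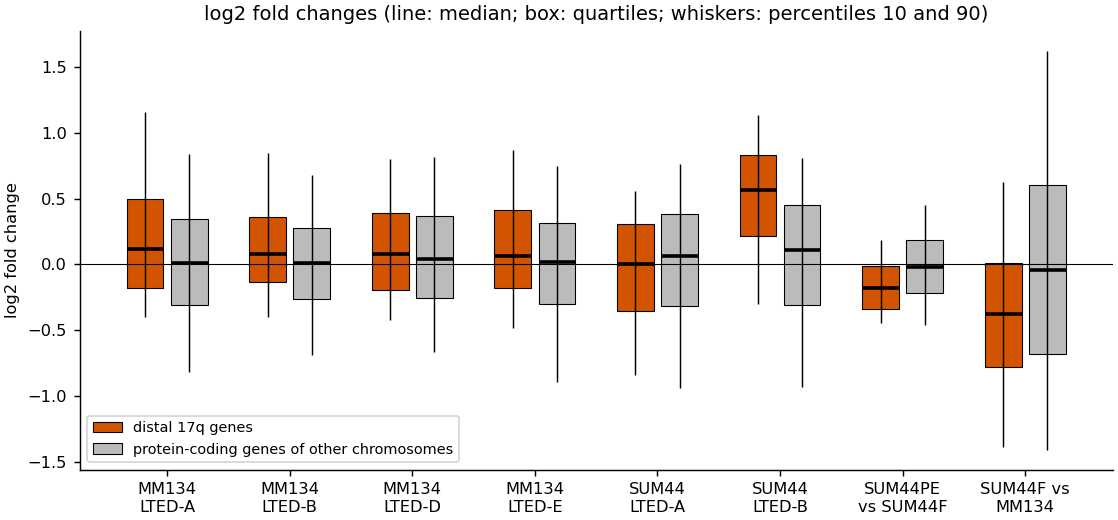
Distribution of the log2 fold change of the distal 17q genes in each comparison beside that of protein-coding genes of the other chromosomes at the same minimum of level (boxes show median and quartiles, whiskers percentiles 10 and 90). The distal 17q median is 0.57 in SUM44 LTED-B, 0.00 in SUM44 LTED-A, -0.18 in SUM44PE and between 0.06 and 0.11 in the MM134 variants.

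Before any long-term deprivation the set was lower in SUM44F than in MM134 parental cells. The median log2 difference was -0.38; 24 genes were higher and 93 lower in SUM44F by the test in the fit of both lines, against 19.0% and 19.1% of all genes. The lower genes were 36.6% of the set, beside 31.1% of the other genes of chromosome 17 and 27.5% of those of other chromosomes at the same minimum of level. Outside the set, the windows of 5 Mb from 25 to 55 Mb had medians of -0.86 to -0.30. Those from 0 to 25 Mb had medians of 0.02 to 0.35. The lower level in SUM44F was thus not particular to the set. CACNG4, a regulatory subunit of calcium channels and AMPA receptors, was at 0.130, 0.254 and 0.156 CPM in SUM44F against 49.0, 51.5 and 49.9 CPM in MM134 (-8.13 on the log2 scale, adjusted p = 5.01e-24). PYCR1, the mitochondrial reductase of proline synthesis, was at 62.9, 63.2 and 62.5 CPM in MM134 and 1.04, 0.722 and 0.735 CPM in SUM44F (-6.27 on the log2 scale, adjusted p = 7.73e-22), and stayed at 0.482, 0.395 and 0.437 CPM in SUM44 LTED-B. TSPOAP1 was at 68.2, 67.9 and 65.8 CPM in MM134 parental cells, with -6.48 (adjusted p = 3.53e-24) in SUM44F. In the other direction, UNC13D (5.10 on the log2 scale, adjusted p = 1.99e-18) and SLC16A5 (5.41 on the log2 scale, adjusted p = 4.11e-22), a monocarboxylate transporter at 27.9, 28.9 and 25.3 CPM in SUM44F and 0.657, 0.512 and 0.777 CPM in MM134, were higher in SUM44F. For all 5 genes the lines did not overlap. SECTM1, a secreted and membrane protein of epithelial and myeloid cells, was at 14.1, 14.9 and 11.3 CPM in SUM44F and 0.114, 0.0809 and 0.194 CPM in MM134 (6.70 on the log2 scale, adjusted p = 7.65e-19).

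The distal 17q genes were also grouped by role. These lists were drawn up with earlier results of the same data known, and the counts are beside the percentages of all genes given above. In SUM44 LTED-B, 48.0% of the whole set was over 1.5-fold above SUM44F and 7.09% below. That comparison chose the set, so nothing is read from the counts or the order of the lists in it. The 16 genes of RNA splicing and processing had medians between -0.16 and -0.08 in the MM134 variants, and none passed except DDX5 in LTED-B (-0.60 on the log2 scale, adjusted p = 1.79e-11), a call lost without MM134 parental replicate 1 or LTED-B replicate 1 (both -0.57). In SUM44 LTED-A, DDX5, an RNA helicase, was at 275 and 326 CPM against 464, 477 and 441 CPM in SUM44F, and in LTED-B at 529, 509 and 502 CPM, so that the LTED variants of SUM44 stood on opposite sides of the parental cells. It fell by 0.62 on the log2 scale (SE 0.10, adjusted p = 0.000757) in LTED-A, a call that each left-out SUM44F library ended (-0.61, -0.58 and -0.63). Each left-out SUM44 LTED-B library ended this call of DDX5 too (-0.62 each). So did RLE size factors, DESeq2, a replicate block and LTED-A replicates 2 and 3 taken apart (-0.64 to -0.56). Without LTED-A replicate 1 the value was -0.45. MSI2, an RNA-binding translational regulator, fell by 0.66 on the log2 scale (SE 0.065, adjusted p = 2e-05). Against SUM44PE, MSI2 was at -0.57 (adjusted p = 7.85e-06), just under 1.5-fold, and DDX5 at -0.13 (adjusted p = 0.305), so that neither was called. In SUM44 LTED-B 7 of the 16 were more than 1.5-fold above SUM44F and 0 below, and 9 of the 16 were lower in SUM44F than in MM134. SRSF1 was among these 9 (-0.59 on the log2 scale, adjusted p = 1.26e-10), but its call was lost without MM134 parental replicate 1 or 3 or SUM44F replicate 3 (-0.57, -0.56 and -0.57).

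The 18 genes of DNA replication, repair and mitosis had a median of 0.77 in SUM44 LTED-B, with 13 genes over 1.5-fold and 0 below. In SUM44 LTED-A 4 rose (TK1, PRR11, SKA2 and KPNA2, above) and CEP95 fell (-0.64 on the log2 scale, adjusted p = 7.75e-05), with a median of 0.27. Against SUM44PE, CEP95 was at -0.34 and did not pass (adjusted p = 0.00118). In MM134 LTED-A, B, D and E the medians were -0.06, -0.08, -0.18 and 0.04. JPT1, a microtubule-associated protein, fell in the MM134 variants, with -0.86, -0.71, -0.70 and -0.86 in LTED-A, B, D and E (adjusted p at most 6.21e-12), from 116 ± 2.15 CPM in parental cells. It was at 69.0, 67.6 and 61.9 CPM in SUM44F and 134, 139 and 143 CPM in SUM44 LTED-B, above every SUM44F library. CEP131, a centrosomal protein, fell in MM134 too, with -0.82, -0.75, -1.06 and -0.78 (adjusted p at most 3.99e-10).

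Among the 17 genes of mitochondrial proteins the medians were 0.47, 0.24, 0.31 and 0.22 in MM134 LTED-A, B, D and E, 0.16 in SUM44 LTED-A and 0.73 in SUM44 LTED-B. PYCR1 was at 147, 148 and 156 CPM in MM134 LTED-A, against 62.9, 63.2 and 62.5 CPM in parental libraries, and rose by 1.25 (adjusted p = 1.73e-17), 0.90 (adjusted p = 4.25e-15), 0.67 (adjusted p = 3.3e-13) and 0.84 (adjusted p = 7.07e-15). MRPL12 rose in LTED-A, LTED-D and LTED-E of MM134 (0.79 with adjusted p = 2e-07, 0.80 with adjusted p = 2.79e-07 and 0.67 with adjusted p = 2.27e-06) and was at 0.57 in LTED-B. In SUM44 LTED-B 11 of the 17 were over 1.5-fold above SUM44F, and PYCR1, at under 1 CPM there, was the 1 below.

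Of 23 genes of metabolism, lysosome and transport, 11 rose and 1 fell in MM134 LTED-A, 8 and 1 in LTED-B, 6 and 1 in LTED-D and 7 and 1 in LTED-E, with MGAT5B the gene that fell. CYB561, a cytochrome that carries electrons across vesicle membranes, rose from 133 ± 3.66 CPM to 321 ± 11.5 CPM in LTED-A (1.26 on the log2 scale, adjusted p = 7.92e-17) and by 0.88, 1.02 and 0.72 in LTED-B, D and E. SLC39A11, a zinc transporter, rose by 1.19, 1.24, 0.83 and 1.19 in MM134 LTED-A, B, D and E and fell by 0.81 on the log2 scale (SE 0.11, adjusted p = 0.000176) in SUM44 LTED-A, where it was at -0.34 against SUM44PE and did not pass (adjusted p = 0.0148). DCXR, a dicarbonyl reductase, rose by 1.07 (adjusted p = 3.03e-12) in MM134 LTED-A and by 0.81 (adjusted p = 0.000563) in SUM44 LTED-A, from 40.9 ± 7.55 CPM in SUM44F (SD, n = 3).

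Of 22 genes of kinases and signalling, 8 rose and 2 fell in MM134 LTED-A, 4 and 2 in LTED-B, 4 and 1 in LTED-D and 7 and 3 in LTED-E, while 1 rose and 6 fell in SUM44 LTED-A. ERN1, the sensor IRE1 of the unfolded protein response, stood at 9.77, 10.2 and 10.0 CPM in the MM134 parental libraries, at 37.1, 36.1 and 35.8 CPM in those of LTED-A and at 21.6 ± 0.266, 18.4 ± 0.735 and 21.9 ± 1.44 CPM in LTED-B, D and E (SD, n = 3 each), a rise of 1.85, 1.12, 0.89 and 1.14. In SUM44 LTED-A it fell by 0.76 on the log2 scale (SE 0.10, adjusted p = 0.000163), and against SUM44PE it was at -0.50 (adjusted p = 0.000591), under 1.5-fold and not called. ITGB4, the integrin beta-4 chain of hemidesmosomes, rose by 1.60, 1.70, 2.47 and 3.16 in MM134 LTED-A, B, D and E and fell by 0.93 on the log2 scale (SE 0.11, adjusted p = 5.72e-05) in SUM44 LTED-A. GPRC5C, an orphan receptor induced by retinoic acid, was at 441 ± 17.5 CPM in MM134 LTED-A against 91.9 ± 4.78 CPM in the parental cells (2.26 on the log2 scale, adjusted p = 2.4e-19), and at 81.8, 90.2 and 91.0 CPM in SUM44 LTED-B against 46.4, 46.9 and 39.2 CPM in SUM44F.

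For 19 genes of chromatin and transcription, 6 rose and 2 fell in MM134 LTED-A, 3 and 1 in LTED-B, 6 and 1 in LTED-D and 7 and 2 in LTED-E, and in SUM44 LTED-A SOX9 alone rose (1.06 on the log2 scale, adjusted p = 0.000193), with 34.8 and 23.2 CPM against 13.3, 14.7 and 13.6 CPM in SUM44F. CBX2, a Polycomb subunit, rose by 1.00 (adjusted p = 1.84e-15) in MM134 LTED-A, from 106 ± 2.65 to 213 ± 7.32 CPM. Of the 19 genes of the 17q23 amplicon of breast cancer, at most 3 rose in an MM134 variant and none passed in either direction in SUM44 LTED-A. PPM1D and RPS6KB1, a phosphatase of the p53 pathway and the S6 kinase, were at 0.30 and 0.51 in SUM44 LTED-B, under the 1.5-fold line. TBX2, a T-box repressor, rose in MM134 LTED-A from 4.03, 4.69 and 4.11 to 26.9, 27.5 and 30.2 CPM (2.71 on the log2 scale, adjusted p = 8.12e-16). CLTC, clathrin heavy chain, rose in LTED-D (0.68 on the log2 scale, adjusted p = 4.96e-13), with 676 ± 24.1 CPM in parental cells and 1075 ± 10.4 CPM in the variant. Ubiquitin, SUMO and proteasome genes, 19 in all, had 3, 2, 5 and 3 rising and 0, 0, 0 and 1 falling in MM134 LTED-A, B, D and E, and RNF157 rising in SUM44 LTED-A (0.63 on the log2 scale, adjusted p = 0.000631), a call that leaving out any 1 of the SUM44F or SUM44 LTED-B libraries or LTED-A replicate 1 ended (0.55 to 0.67) and that was not made against SUM44PE (0.23, adjusted p = 0.0594). Of 20 genes of trafficking and cytoskeleton, 5, 2, 4 and 2 rose and 1, 0, 0 and 1 fell in the same order, with SYNGR2, a vesicle membrane protein, rising by 1.41, 1.03, 1.03 and 1.08, and SYNGR2 and KPNA2 rose and CYTH1 and WIPI1 fell in SUM44 LTED-A. The call of SYNGR2 in SUM44 LTED-A was lost without SUM44F replicate 1 (0.65). Against SUM44PE, CYTH1 at -0.56 (adjusted p = 0.000593) and WIPI1 at -0.24 (adjusted p = 0.0496) were not called.

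**Figure D5:**
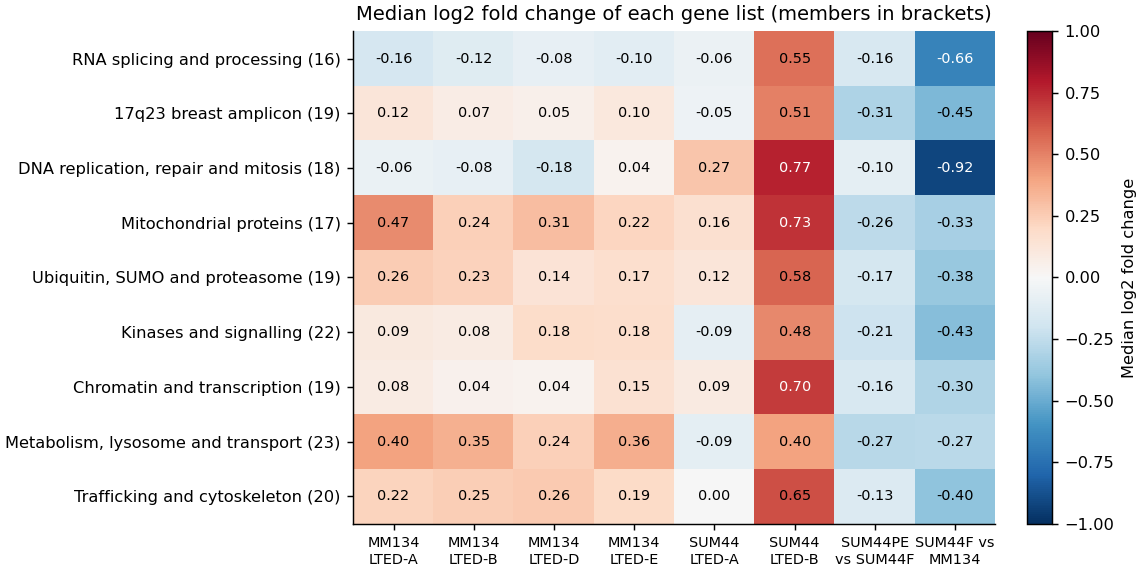
Median log2 fold change of each list of distal 17q genes in each comparison. Medians in SUM44 LTED-B run from 0.40 for metabolism to 0.77 for DNA replication, and each list has a median below 0 in SUM44F against MM134 parental cells.

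Whether the effect of long-term deprivation in SUM44 LTED-A differed from that in the MM134 variants was tested in the fit of both lines. The difference taken was the effect in SUM44 LTED-A minus the mean effect in the 4 MM134 variants. Since SUM44 entered with a single variant, a trait of LTED-A cannot be told apart from one of the line. Of the 254 genes, 24 had a higher and 52 a lower effect in SUM44 LTED-A, or 9.45% and 20.5%, against 9.97% and 10.5% of all genes tested and 18.3% and 16.9% of genes of other chromosomes at the same minimum of level. The median of the set was -0.10. PRR11 differed by 1.28 (SE 0.066, adjusted p = 3.31e-14), KPNA2 by 0.90 (SE 0.068, adjusted p = 5.92e-11) and NHERF1 by 1.09 (SE 0.10, adjusted p = 2.12e-09), all higher in SUM44 LTED-A. ERN1 differed by -2.01 (SE 0.082, adjusted p = 4.09e-16) and ITGB4 by -3.16 (SE 0.14, adjusted p = 1.58e-15), both lower. SRSF1, at 0.39 (adjusted p = 3.5e-05), had a difference below 1.5-fold. SUM44 LTED-B entered no such test.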

How the data were processed

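RNA-seq libraries of the 9 groups were made by the authors with a stranded total RNA kit, and reads were quantified with Salmon 0.6.0 (hg38, Ensembl 82). The strand setting of the counting is not given in the sources used here. The deposited table holds estimated counts per gene, not normalized, for 60619 Ensembl genes, of which 56434 were matched to GENCODE v44 for symbols and positions. Counts were rounded to whole numbers. The members and the gene lists were chosen with earlier results of these data known.

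Genes were filtered with filterByExpr, scaled by TMM and tested with edgeR 4.0.16 (glmQLFit and glmQLFTest, two-sided, Benjamini-Hochberg adjustment over all genes tested) in R 4.3.3. There was 1 fit for MM134 (26061 genes), 1 for SUM44F with its LTED variants (26834), another with SUM44PE as well (27457) and 1 of all groups (29608) for SUM44F against MM134 and for the difference of effects. A gene rose or fell with a change over 1.5-fold and an adjusted p under 0.001. Standard errors (SE) are the log2 fold change divided by the root of the F statistic. SUM44 LTED-B was described by fold alone. Replicates 2 and 3 of SUM44 LTED-A had a chi-square of 0.312 per degree of freedom, against 2.35 to 58.3 in the 26 other pairs, and their mean was used as 1 sample. On simulated data with 200 genes changed 2-fold, 90.5% were recovered with 1 false call of 25310 genes for MM134 LTED-A, and 51.5% with 3 false calls of 26042 for SUM44 LTED-A.

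Named genes were those in the label of the set or next to its thresholds, the 3 called genes with the largest change in each direction of each comparison at 5 CPM or more with no overlap of groups, the 10 highest and 5 lowest in SUM44 LTED-B, the 5 with the highest mean CPM, and up to 4 of each list by mean CPM. A gene that this rule named is not reported here. TK1, AFMID, AXIN2 in SUM44, TEX14, RAD51C, CEP95, CEP131, CYTH1, WIPI1, ERN1, ITGB4, TBX2, PPM1D, RPS6KB1, SLC39A11, DCXR, SYNGR2 and the pairs of neighbours were added after their values were seen. Genes that overlap others, such as TEN1, CDK3 and their readthrough transcript, are uncertain. Alternatives were RLE size factors, DESeq2 1.42.0, no filter on low counts, an adjusted p under 0.05, a replicate block, SUM44PE as reference, SUM44 LTED-A replicates 2 and 3 apart, other limits of the set and each library left out. Medians and figures were made with Python 3.11.15, pandas 2.3.3 and matplotlib 3.10.9.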

Additional observations from a re-analysis of the deposited data

Results flagged for a closer look

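The effect in SUM44 LTED-A differed from that in the MM134 variants in 29 of the named distal 17q genes, by a test of the difference itself. It took the log2 effect in SUM44 LTED-A against SUM44F minus the mean log2 effect of the 4 MM134 variants against MM134 parental cells. This was done in the edgeR fit of both lines (adjusted p of at most 0.00013). SUM44 entered with a single variant, so a trait of LTED-A cannot be told apart from one of the line. Many named genes were chosen for large changes in these same comparisons, so the count of 29 is not a result about the set. Of all genes tested, 9.97% had a higher and 10.5% a lower effect in SUM44 LTED-A. SUM44 LTED-B, which chose the set, did not enter, but the SUM44F libraries are shared with that choice.

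The effect was lower in SUM44 LTED-A for 15 genes. Those with roles at membranes and in signalling were UNC13D (-4.94), PECAM1 (-4.87), TTYH2 (-4.08), ABCA5 (-3.31), PRKCA (-3.17), GPRC5C (-1.76), ACE (-2.12) and CYB561 (-1). Transcription factors and chromatin proteins among them were FOXJ1 (-3.46), SOX9 (-2.14) and CBX2 (-0.82). The others were SCPEP1 (-2.54), RNF213 (-0.87), a large ubiquitin ligase, SEPTIN9 (-0.74), a cytoskeletal GTPase, and ANKFN1 (-7.01). The value of ANKFN1 depends on the prior count because MM134 parental libraries held few counts of it. Without SUM44F replicate 1 the differences of FOXJ1, PRKCA and ACE were smaller in size, at -3.05, -2.80 and -1.60, and each still passed. SCPEP1 was at 11.0 ± 0.645 CPM in MM134 parental cells, at 31.4 ± 3.25 CPM in SUM44F (SD, n = 3 each) and at 9.83 and 12.2 CPM in SUM44 LTED-A. It thus rose in MM134 LTED-A (1.29 on the log2 scale, adjusted p = 3.28e-13) and fell in SUM44 LTED-A (adjusted p = 5.7e-06); against SUM44PE its difference in SUM44 LTED-A was -0.60, which did not pass (adjusted p = 0.00113).

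The effect was higher in SUM44 LTED-A for 14 genes. They included genes of the cell cycle and the nucleus, PRR11 (1.28), SKA2 (0.78), KPNA2 (0.90), ALYREF (0.85) and JPT1 (1.16), and ACTG1 (0.84). The others were NHERF1 (1.09), METRNL (1.25), a secreted protein, TSPOAP1 (1.29), PPM1E (2.09), MMD (0.97), SLC25A10 (0.89), the mitochondrial dicarboxylate carrier, TRIM37 (0.82), a ubiquitin ligase, and GNA13 (0.79), a G protein subunit. The direction of TSPOAP1 turned with the parental culture, since in SUM44 LTED-A it was at -4.45 against SUM44PE (adjusted p = 9.6e-09). The difference of effects between SUM44 LTED-A and the MM134 variants was not tested with SUM44PE as the parental culture. The difference of SKA2 was no longer called without SUM44 LTED-A replicates 2 and 3 (0.53), and that of PPM1E, at 0.138 ± 0.0535 CPM in SUM44F, without SUM44F replicate 3 (1.79) or SUM44 LTED-A replicate 1 (1.92).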

How the results depend on the processing

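With another reference culture, SUM44PE in place of SUM44F, the median log2 difference of the distal 17q genes was 0.17 in SUM44 LTED-A and 0.74 in SUM44 LTED-B, and 47 genes rose in LTED-A in place of 17. At a mean of 5 CPM or more, 11 genes fell in MM134 LTED-A and 12 were higher in SUM44F than in MM134. With the set started at 60 Mb the median in MM134 LTED-A was 0.14, and started at 50 Mb the median in MM134 LTED-D was 0.062. Replicate numbers did not pair the samples: deviations of same-numbered samples correlated between -0.34 and 0.27, and in 0 of 7 pairs of groups was each correlation over 0.1. With the replicate number as a block, 8 genes rose in SUM44 LTED-A, and no other count or median of the set left its range of 1.5 times or 1 SD. Without SUM44 LTED-A replicates 2 and 3, 9 genes rose in that variant. Leaving out 1 other library gave 10 to 16 rising and 17 to 27 falling genes in SUM44 LTED-A, 2 to 5 rising genes in SUM44PE and a median of 0.056 to 0.0813 in MM134 LTED-E, the highest without MM134 parental replicate 1. The other 302 leave-one-out values and 176 values under other settings, DESeq2, RLE size factors and no filter on low counts included, stayed within that range. Of calls of named genes, 71 leave-one-out values and 14 under other settings missed the limit on fold or that on adjusted p. The calls were kept in 3075 and 1090 values, and none reversed in direction. The SUM44 comparisons are limited by n = 2 in SUM44 LTED-A and by SUM44F replicates 1 and 3. SUM44F replicate 3 had a chi-square per degree of freedom of 42.9 and 39.3 against replicates 1 and 2, which had 14.2 between them. Without SUM44F replicate 3 the median in SUM44 LTED-B was 0.50. In SUM44F against MM134 parental cells, 82 genes were then lower, with a median of -0.31. Without SUM44F replicate 1, 16 genes rose and 24 fell in SUM44 LTED-A, and 5 rose and 7 fell in SUM44PE. In SUM44F against MM134 parental cells, 24 were then higher and 97 lower. The difference of effects was higher in SUM44 LTED-A for 30 genes and lower for 51, with a median of -0.06.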

Other observations

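Long non-coding RNAs of the region, which were not part of the set, had medians beside those elsewhere in the genome that differed by comparison. In SUM44F against MM134 parental cells their median log2 difference was -0.25 (152 tested) against 0.22 for 6986 elsewhere, and in SUM44PE against SUM44F it was -0.06 (131 tested) against 0.02 for 6326. In MM134 LTED-D it was -0.14 (140 tested) and -0.15 elsewhere. Other back-to-back pairs were OXLD1 and CCDC137, at 0.79 and 0.83 above SUM44F in SUM44 LTED-B, JMJD6 and METTL23, at 1.18 and 0.61, and TEX14 and RAD51C, at -0.14 and 0.86. TEX14 and RAD51C lie next to each other on opposite strands and the strand setting of the counting is not given in the sources used here, so reads near their shared boundary cannot be assigned with certainty. MRC2, an endocytic collagen receptor, is a case where SUM44F replicate 1 matters: without it the difference of its effect between SUM44 LTED-A and the MM134 variants was 2.41 and passed the test, and with it the value was 1.59 (adjusted p = 0.00338).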
